A study of Mus musculus with 8 samples.

Results

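A set of 10 genes of secreted matrix proteins were followed in UV-treated and untreated mouse embryonic fibroblasts, 10 of the 39175 genes in each deposited table. They were taken by name: the thrombospondins Thbs1, Thbs2 and Thbs3, the CCN genes Cyr61, Ctgf and Nov, the other matricellular genes Postn, Tnc and Sparc, and the fibronectin gene Fn1. All 10 were found once in each table and all were tested by the authors in both. The cells had 2 genotypes, both in a C57BL/6J background and both lacking p53: p53-/-Cry1-/-Cry2-/- cells (p53CryKO), which also lack both cryptochromes, and p53-/- cells (p53KO). Cells of each genotype were either exposed to 40 J/m2 from a germicidal lamp (mainly 254 nm) and harvested 16 h later, or left untreated. Poly(A)-selected RNA of 2 biological replicates in each of the 4 groups was sequenced, 8 samples in all. The labels do not tell how many embryos or independently derived lines stand behind a genotype, and the p-values of the authors therefore reflect only how far these samples spread, which may be technical. Every level is the authors' FPKM (fragments scaled by transcript length and by library size), 1 value a gene and group, pooled by the authors over the 2 replicates. No value per replicate is held in these tables, so no standard deviation and no overlap of replicates can be given.

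Matricellular proteins are secreted into the matrix but act mainly on cells, through integrins, CD47 and proteoglycans, rather than as structural fibres. Fibroblasts are a main source of them in wounds, where thrombospondin-1, tenascin-C, periostin and CCN proteins appear at different stages of repair. Cyr61 and Ctgf are also textbook target genes of the coactivators YAP and TAZ, which bind DNA through TEAD factors, and of the serum response factor. Fibronectin is a fibril-forming matrix glycoprotein on which several matricellular proteins are held.

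The promoter of Cyr61 is shown because it was the only one of the 8 promoters found, for 6 of the 10 genes, that held any of the motifs searched. It is shown with that of Postn, the gene that went furthest the other way. Both are RefSeq sequences of build GRCm38.p6, 250 bases before and 50 bases from the annotated start, and a single capital marks the first transcribed base. In the Cyr61 promoter (chr3:145649936-145650235, minus strand) the capital run is CATTCC, the reverse complement of the TEAD motif GGAATG, at 103 to 98 bases before the start. The Postn promoter (chr3:54360857-54361156, plus strand) belongs to one of 2 annotated starts.
Cyr61: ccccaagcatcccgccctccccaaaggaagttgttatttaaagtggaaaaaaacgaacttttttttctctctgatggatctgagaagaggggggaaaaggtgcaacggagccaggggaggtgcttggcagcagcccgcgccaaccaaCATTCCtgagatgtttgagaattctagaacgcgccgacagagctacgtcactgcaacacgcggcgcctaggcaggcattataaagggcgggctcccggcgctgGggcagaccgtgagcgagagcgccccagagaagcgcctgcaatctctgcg
Postn: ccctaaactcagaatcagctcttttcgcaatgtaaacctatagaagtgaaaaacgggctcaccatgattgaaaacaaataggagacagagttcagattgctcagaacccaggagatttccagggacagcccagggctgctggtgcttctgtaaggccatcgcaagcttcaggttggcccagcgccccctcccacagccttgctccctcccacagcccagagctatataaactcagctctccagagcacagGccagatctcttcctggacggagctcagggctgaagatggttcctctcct
The motifs searched on both strands were GGAATG (TEAD), the CArG box bound by serum response factor, TGANTCA (AP-1) and CACGTG (E-box). Over 32851 promoters of the same length, 14.7% held the TEAD motif, 1.63% a CArG box, 7.81% the AP-1 motif and 7.15% the E-box. The promoters of Thbs2, Thbs3, Sparc and both starts of Postn and Tnc held none of these letters in this window, and no promoter was at hand for Thbs1, Ctgf, Nov and Fn1.

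UV was followed by opposite movements within this gene group. Cyr61, Thbs1 and Ctgf fell in both genotypes, and Postn, Thbs3 and Fn1 rose in both on the authors' scale, of which Thbs3 and Fn1 turned in p53CryKO cells at equal summed FPKM of protein-coding genes. A gene was called where the authors' deposited table gives a q of at most 0.05. By that rule 5 of the 10 genes were higher and 4 lower in p53CryKO cells, where 25.1% of all tested genes were called higher, 27.2% lower and 52.3% either way. That is 9 of 10 called, against 6 of 10 in p53KO cells, with 3 genes higher and 3 lower there, beside 23.9% and 26.9% of all tested genes and 50.9% either way. A call in 1 genotype and not in the other is no difference between them. The difference itself, tested below, was called for 0 of the 10 genes. The median log2 fold change (UV over untreated) of the 10 genes was 0.10 in p53CryKO and -0.10 in p53KO cells, against 0.09 and 0.10 for all genes tested. The sign was the same in both genotypes for 10 of 10 genes, and 6 of 10 were called in the same direction in both, beside 90.5% and 51.9% of 12300 genes. The scale matters for the rises: summed FPKM of protein-coding genes was higher after UV by 1.02 (p53CryKO) and 1.01 (p53KO) on the log2 scale, although the median expressed gene moved by only 0.05 in each. Scaling to equal summed coding FPKM lowers every fold change by those amounts, which keeps the direction of the falls and of Postn and turns several smaller rises, as given beside each gene.

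**Figure D1:**
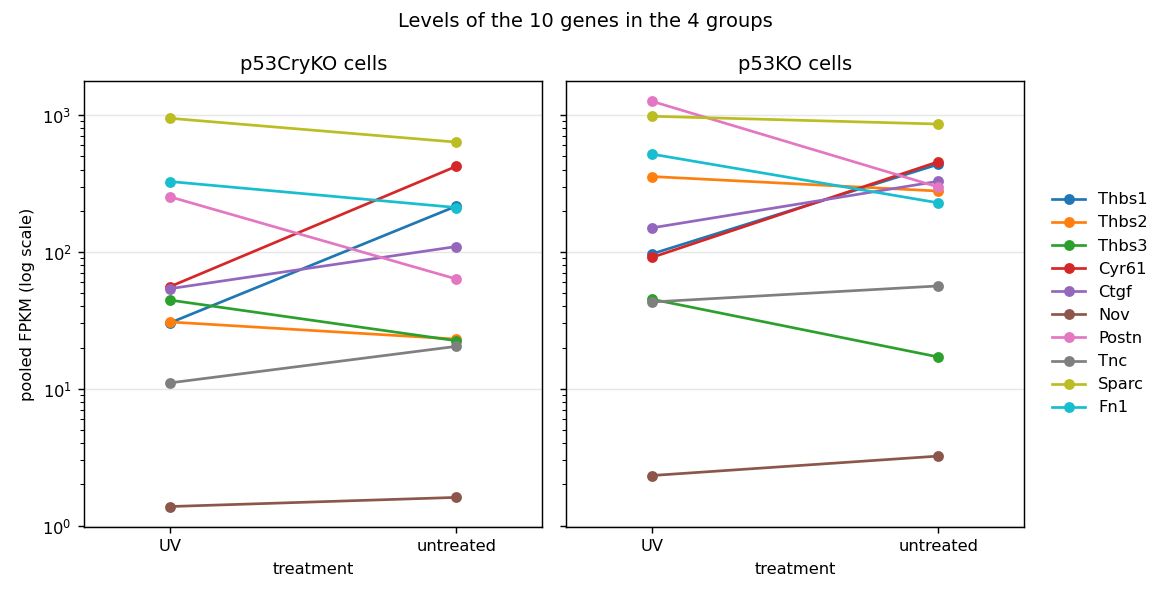
Pooled FPKM (log scale) of the 10 genes after UV and without treatment, in p53CryKO cells (left panel) and p53KO cells (right panel); each point is 1 pooled value of 2 replicates, so there are no error bars. Cyr61 and Thbs1 stand at 55.8 and 30.4 FPKM in UV-treated p53CryKO cells against 422 and 216 FPKM in untreated ones, while Postn lies above its untreated level in both panels.

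Thbs1 encodes thrombospondin-1, a trimeric glycoprotein that binds CD47 and CD36, inhibits angiogenesis and can activate latent TGF-beta. It was at 30.4 FPKM in UV-treated and 216 FPKM in untreated p53CryKO cells, and at 96.8 FPKM in UV-treated and 436 FPKM in untreated p53KO cells. Its level was 7.12-fold lower after UV in p53CryKO cells (log2 fold change -2.83, implied SE 0.26, q = 0.000161 in the authors' deposited table). It was 4.51-fold lower in p53KO cells (-2.17, implied SE 0.33, q = 0.000169 in the authors' deposited table). The implied SE is the size of the log2 fold change over the size of the authors' test statistic. Every q given below at equal coding FPKM comes from a normal p with that SE, adjusted by Benjamini-Hochberg, and not from the authors' test. A call lost or gained there therefore mixes the change of scale with the change of test. Only 2.01% of 11783 expressed genes (FPKM of 1 or more in a condition) in p53CryKO cells, and 6.11% of 11951 in p53KO cells, had a lower log2 fold change than Thbs1. The gene lies at chr2:118111876-118127133 on the plus strand (GENCODE M21, GRCm38) and overlaps Gm29233 on the other strand.

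Thbs2, its closest relative, also an inhibitor of angiogenesis, did not share that fall. Its level was 30.8 FPKM after UV and 23.1 FPKM without in p53CryKO cells, and 355 FPKM after UV and 279 FPKM without in p53KO cells. It rose in p53CryKO cells by a log2 fold change of 0.42 (implied SE 0.24, q = 0.0317 in the authors' deposited table), a direction that turned at equal coding FPKM (-0.61, q = 0.0272). In p53KO cells the value was 0.35 (implied SE 0.33, q = 0.211 in the authors' deposited table) and -0.66 at equal coding FPKM. The ratio of Thbs1 to Thbs2, which no scaling can change, was 0.987 in UV-treated and 9.37 in untreated p53CryKO cells, and 0.272 in UV-treated and 1.57 in untreated p53KO cells. After UV the 2 thrombospondins were thus about level in p53CryKO cells and in turned order in p53KO cells, with a log2 change of the ratio of -3.25 (implied SE 0.36) in p53CryKO and -2.53 (implied SE 0.47) in p53KO cells.

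Thbs3 belongs to the pentameric thrombospondins, which lack the anti-angiogenic repeats of the other two. It was at 44.5 FPKM in UV-treated and 22.4 FPKM in untreated p53CryKO cells, and at 45.1 FPKM in UV-treated and 17.1 FPKM in untreated p53KO cells. It rose 1.98-fold in p53CryKO cells (0.99 on the log2 scale, q = 0.0252 in the authors' deposited table) and 2.64-fold in p53KO cells (1.40, q = 0.00323 in the authors' deposited table), but its implied SEs of 0.58 and 0.66 were the widest of the 10 genes. At equal coding FPKM the direction turned in p53CryKO cells (-0.03) and the value was 0.39 (q = 0.705) in p53KO cells, and with a normal p from the implied SE neither call held (q = 0.174 and 0.0825). The Thbs3 locus (chr3:89215180-89226837, plus strand) overlaps Mtx1 on the opposite strand, at 127 FPKM after UV and 98.3 FPKM without in p53CryKO cells and 164 FPKM after UV and 117 FPKM without in p53KO cells. The sources used here do not give strand use in the counting, so reads of the 2 genes may not be told apart.

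The CCN genes encode modular proteins that bind integrins and heparan sulfate. Cyr61 (also named Ccn1), an immediate-early gene that promotes adhesion and can induce fibroblast senescence in wounds, showed the deepest fall of the 10 genes in both genotypes. It was at 55.8 FPKM in UV-treated and 422 FPKM in untreated p53CryKO cells, a 7.57-fold lower level (-2.92, implied SE 0.25, q = 0.000161 in the authors' deposited table). In p53KO cells it was at 91.2 FPKM after UV and 456 FPKM without, 5.00-fold lower (-2.32, implied SE 0.30, q = 0.000169 in the authors' deposited table). By FPKM it held place 4 of the 10 genes in UV-treated p53CryKO cells and place 7 in UV-treated p53KO cells, against place 2 in untreated cells of both genotypes. The gene lies at chr3:145646976-145649981 on the minus strand.

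Ctgf (Ccn2), a fibroblast growth and matrix-inducing factor that acts downstream of TGF-beta, fell less. It had 53.9 FPKM in UV-treated and 110 FPKM in untreated p53CryKO cells, 2.03-fold lower (-1.02, implied SE 0.25, q = 0.000161 in the authors' deposited table). It had 150 FPKM in UV-treated and 328 FPKM in untreated p53KO cells, 2.19-fold lower (-1.13, implied SE 0.32, q = 0.000169 in the authors' deposited table). The ratio of Cyr61 to Ctgf was 1.04 after UV and 3.86 without in p53CryKO cells, and 0.608 after UV and 1.39 without in p53KO cells. In p53KO cells the order of the pair was therefore turned round, and in p53CryKO cells both ended at about the same FPKM. Ctgf overlaps the annotated gene Gm15270 on the other strand.

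Nov (Ccn3), which can counteract Ctgf, was close to the expression limit used here. It had 1.38 FPKM in UV-treated and 1.61 FPKM in untreated p53CryKO cells, and 2.32 FPKM in UV-treated and 3.22 FPKM in untreated p53KO cells. Its log2 fold changes of -0.22 (q = 0.409) and -0.47 (q = 0.0638) did not pass the threshold in the authors' deposited table. At equal coding FPKM they were -1.24 (q = 0.000277) and -1.48 (q = 1.51e-05). Cyr61 was 40.5 times the FPKM of Nov in UV-treated p53CryKO cells and 263 times in untreated ones, and 39.2 times in UV-treated p53KO cells and 141 times in untreated ones.

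Postn encodes periostin, a fasciclin-domain protein that binds integrins and collagen and marks activated fibroblasts. It had 253 FPKM in UV-treated and 63.4 FPKM in untreated p53CryKO cells, and 1261 FPKM in UV-treated and 298 FPKM in untreated p53KO cells. It rose 3.98-fold in p53CryKO cells (1.99, implied SE 0.35, q = 0.000161 in the authors' deposited table) and 4.23-fold in p53KO cells (2.08, implied SE 0.47, q = 0.000169 in the authors' deposited table). It was the only one of the 10 genes whose rise stayed positive and over 0.9 in both genotypes at equal coding FPKM, where the values were 0.97 and 1.07, though the second then had q = 0.05002, just past the threshold. In UV-treated p53KO cells Postn was the most abundant of the 10 genes, 35.6% of their summed FPKM, against 10.1% in untreated p53KO cells. In p53CryKO cells it made up 14.4% after UV and 3.68% without. The gene lies at chr3:54361109-54391037 on the plus strand.

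Tnc, the gene of tenascin-C, a hexameric anti-adhesive protein of wounds and tumour stroma, moved against Postn. It fell in p53CryKO cells, with 11.05 FPKM after UV and 20.4 FPKM without (-0.89, implied SE 0.24, q = 0.000161 in the authors' deposited table). In p53KO cells it was at 43.1 FPKM after UV and 56.4 FPKM without, and the log2 fold change of -0.39 (implied SE 0.29, q = 0.103 in the authors' deposited table) did not pass, whereas at equal coding FPKM it was -1.40 (q = 8.75e-06). The ratio of Postn to Tnc was 22.9 after UV and 3.10 without in p53CryKO cells, and 29.3 after UV and 5.28 without in p53KO cells. Periostin is known to help anchor tenascin-C in the matrix. Tnc lies at chr4:63959785-64047015 on the minus strand, within which 8030451A03Rik is annotated on the other strand.

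Sparc (osteonectin), a collagen-binding calcium-binding protein, was the most abundant of the 10 genes in 3 of the 4 groups. It was at 947 FPKM in UV-treated and 634 FPKM in untreated p53CryKO cells, and at 980 FPKM in UV-treated and 860 FPKM in untreated p53KO cells. It rose in p53CryKO cells by 0.58 (implied SE 0.27, q = 0.00518 in the authors' deposited table), and the direction turned to -0.44 at equal coding FPKM. The value in p53KO cells was 0.19 (implied SE 0.34, q = 0.509 in the authors' deposited table), and -0.82 (q = 0.0341) at equal coding FPKM. Sparc lies at chr11:55394500-55423183 on the minus strand.

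Fn1 had 327 FPKM in UV-treated and 211 FPKM in untreated p53CryKO cells, and 518 FPKM in UV-treated and 228 FPKM in untreated p53KO cells. It rose 1.55-fold in p53CryKO cells (0.63, implied SE 0.28, q = 0.00404 in the authors' deposited table), where the direction turned to -0.39 at equal coding FPKM. It rose 2.27-fold in p53KO cells (1.18, implied SE 0.36, q = 0.000169 in the authors' deposited table), but stood at 0.17 (q = 0.774) at equal coding FPKM. Without rescaling, a normal p from the implied SE gave q = 0.00424 for Fn1 in p53KO cells. With a normal p from the implied SE, on the authors' own scale, the p53CryKO calls of Thbs2, Sparc and Fn1 were lost, with q = 0.173, 0.0749 and 0.0613. Fn1 lies at chr1:71585520-71653200 on the minus strand and overlaps Apol7d on the other strand.

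**Figure D2:**
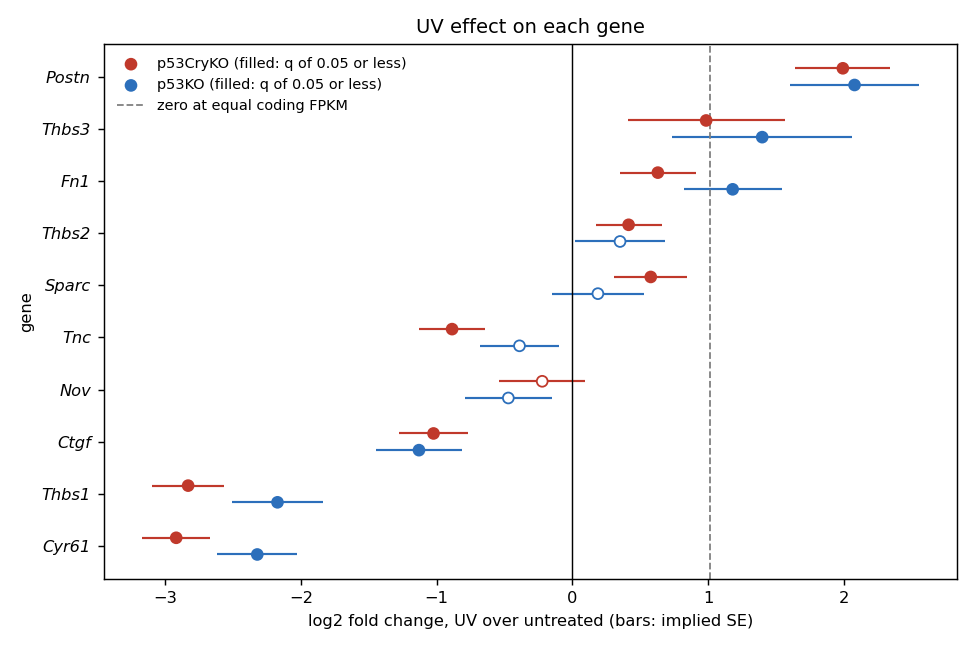
Log2 fold change (UV over untreated) of each of the 10 genes in p53CryKO cells (red) and p53KO cells (blue), with bars of 1 implied SE on either side and filled points where the authors' q is at most 0.05. The dashed line at about 1 is where 0 would fall at equal summed coding FPKM; Postn lies right of it in both genotypes, while the p53CryKO points of Thbs2, Thbs3, Sparc and Fn1 lie between the 2 lines and change sign there.

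Cyr61 and Ctgf are short genes, and they fell where short genes as a class had positive fold changes on the authors' scale. Across protein-coding genes with FPKM of 1 or more, the median log2 fold change was 0.64 in p53CryKO and 0.60 in p53KO cells for spans under 5 kb, and -0.40 and -0.39 for spans of 50 to 100 kb. Cyr61 spans 3.01 kb and Ctgf 3.24 kb. Among genes whose span was within 1.5 times that of Cyr61, the median was 0.52 (739 genes, p53CryKO) and 0.48 (773 genes, p53KO), and 2.30% and 5.30% of them had a lower value than Cyr61. Ctgf was less far out, with 20.6% (p53CryKO) and 19.0% (p53KO) of genes of like span below it. Postn spans 29.9 kb, and 99.7% (p53CryKO) and 99.1% (p53KO) of genes of like span had a lower value than it had. Fn1, with 67.7 kb, stood above 86.2% and 93.2% of genes of like span, whose medians were -0.40 and -0.39. Tnc, the longest of the 10 with 87.2 kb, stood above 35.9% and 51.9% of genes of like span, with medians of -0.45 and -0.44. At equal coding FPKM all of these values and medians are lower by the shifts of 1.02 and 1.01.

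**Figure D3:**
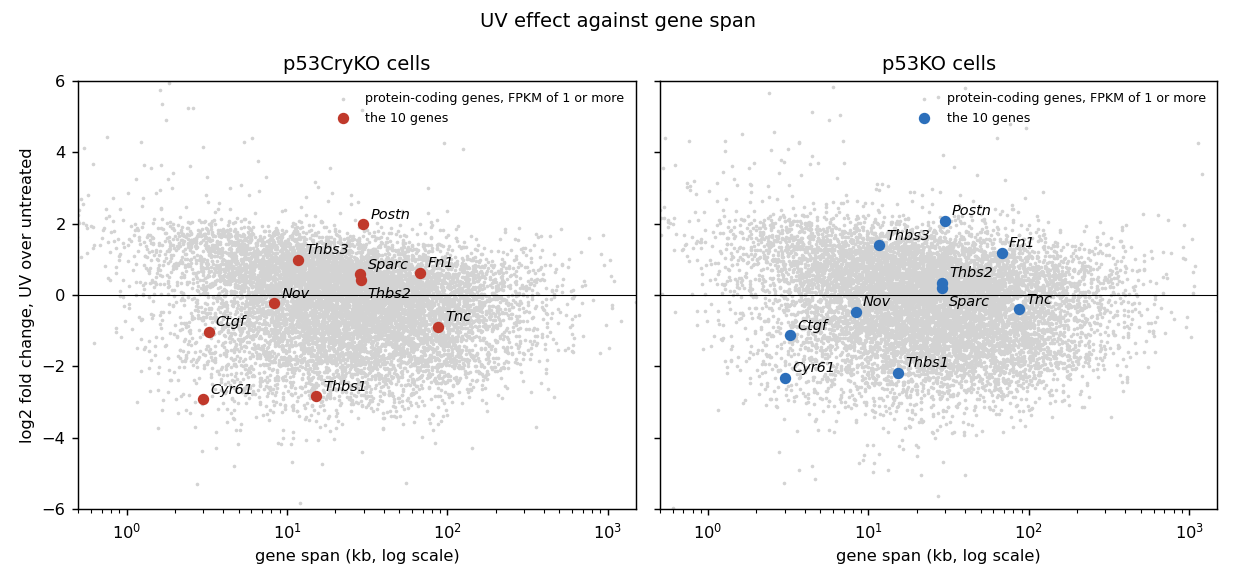
Log2 fold change (UV over untreated) against gene span in kb (log scale) for protein-coding genes with FPKM of 1 or more (grey) and the 10 genes (coloured), in p53CryKO cells (left) and p53KO cells (right), on the authors' scale. Cyr61 and Ctgf lie below most short genes and Postn above nearly all genes of about 30 kb; 41 (p53CryKO) and 35 (p53KO) genes lie outside the axes.

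The 3′ untranslated regions were read from GENCODE M21 because ATTTA, the core of AU-rich elements, is common in mRNAs known to be short-lived; this search was added after the values had been seen. The 2 members with the densest ATTTA were Cyr61 (7.25 per kb of 690 bases) and Thbs2 (4.97 per kb of 2013 bases). Their longest stretches are shown with the overlapping ATTTA copies in capitals.
Thbs2: gattgtaaatATTTATTTAtttgttcatt
Cyr61: agtgaagagaATTTATTTAtaaaattaat
The stretches start near base 1900 (Thbs2, chromosome 17) and base 646 (Cyr61, chromosome 3) of the untranslated region. On the authors' scale, the genes lower in both genotypes held 7.25 (Cyr61), 2.85 (Thbs1) and 1.24 (Ctgf) ATTTA per kb, and those higher in both held 4.36 (Fn1), 1.36 (Postn) and 0 (Thbs3), beside a median of 1.38 over 10352 genes. The ranges of the 2 sets overlap.

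Did loss of the cryptochromes change the UV response of these genes? The difference of the log2 fold changes, p53CryKO minus p53KO, ran from -0.66 (Thbs1) to 0.39 (Sparc) and was called for 0 of the 10 genes, where 0.179% of 12300 genes were called. The difference was divided by its implied SE and read as a normal deviate, and p was adjusted over all 12300 genes by Benjamini-Hochberg; 0 of the 10 genes and 373 of all genes had an unadjusted p under 0.05. Thbs1 and Cyr61, the genes with the deepest falls, had differences of -0.66 (95% interval -1.49 to 0.18) and -0.60 (-1.36 to 0.16). Fn1 had a difference of -0.55 (-1.45 to 0.35), and Postn had -0.09 (-1.24 to 1.07). These intervals and the test may be too wide, since the implied SE can give a larger p than the authors' own. For Fn1 in p53CryKO cells, q was 0.00404 in the authors' deposited table and 0.0613 with a normal p from the implied SE. For Sparc there, the 2 values were 0.00518 and 0.0749. The smallest difference called among all genes was 1.58 in size. For this comparison, data over 12300 genes were simulated with noise of exactly the implied SE. There the test recovered 2.99% of changes of 1 (2 of 67 genes), 59.1% of 2 (39 of 66) and 80.6% of 3 (54 of 67). Recovery with other noise was not simulated. A difference of the size seen for Thbs1 was therefore not detectable with these errors, and its absence is not shown.

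Several of the genes also stood at different levels in the 2 genotypes. The 2 tables were normalized separately, so the following ratios of p53CryKO to p53KO FPKM are a description with no test. Thbs2 was 11.6-fold lower in UV-treated p53CryKO than in UV-treated p53KO cells, and 12.1-fold lower in untreated p53CryKO than in untreated p53KO cells. Only 0.677% (UV) and 0.741% (untreated) of expressed genes had a lower ratio than Thbs2. Postn was 4.99-fold lower after UV and 4.70-fold lower without, Tnc 3.90-fold and 2.76-fold lower, and Ctgf 2.78-fold and 2.997-fold lower. Thbs1 was 3.19-fold lower after UV and 2.02-fold lower without. Nov had log2 ratios of -0.75 and -1.002. Cyr61 and Fn1 were lower after UV (log2 ratios -0.71 and -0.67) and close together in untreated cells (-0.11 and -0.11). Sparc had -0.05 after UV and -0.44 without, and Thbs3 had -0.02 and 0.39. In all, 8 of the 10 genes after UV and 9 of 10 without lay below the median ratio of all genes, which was -0.08 and -0.07, and summed coding FPKM differed between the tables by 0.08 and 0.06. The 10 genes together made up 1754 FPKM in UV-treated and 1724 FPKM in untreated p53CryKO cells, against 3543 FPKM in UV-treated and 2962 FPKM in untreated p53KO cells.

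**Figure D4:**
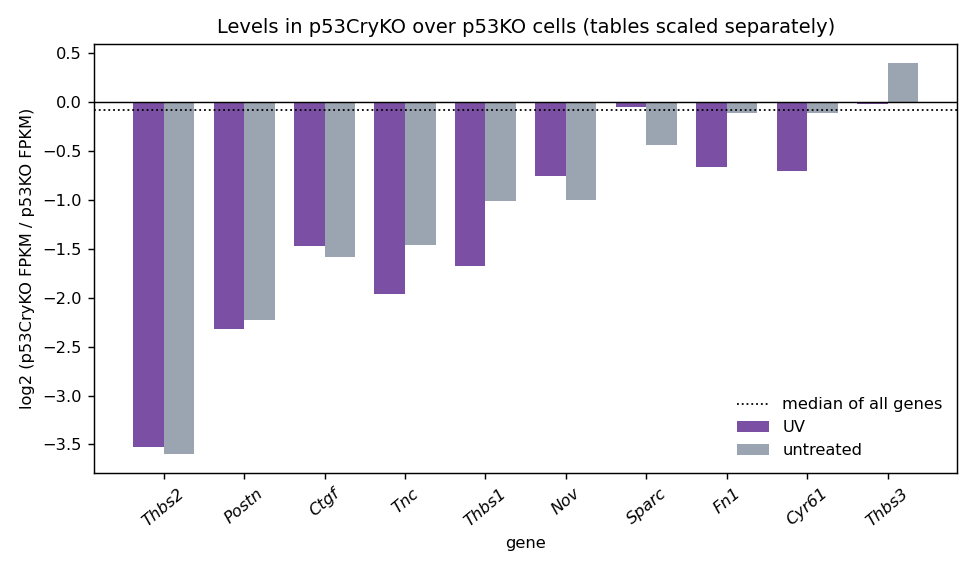
Log2 ratio of FPKM in p53CryKO over p53KO cells for each of the 10 genes, after UV (purple) and untreated (grey), with the median of all genes as a dotted line; the tables were scaled separately and each bar is a ratio of 2 pooled values. Thbs2 reaches -3.53 and -3.59, and 8 (UV) and 9 (untreated) of the 10 genes lie below the dotted line.

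Markers of the cell type and of others were read beside these levels. Summed FPKM of 7 epithelial markers was 20.1 in UV-treated and 11.7 in untreated p53CryKO cells, against 0.392 in UV-treated and 0.315 in untreated p53KO cells. Of these 7, 4 (Cdh1, Krt14, Krt8 and Krt18) had FPKM of 1 or more in both p53CryKO groups, 0 in the p53KO groups, and the defining marker Epcam was at or below 0.0862 in all 4 groups. Of 10 fibroblast markers, 8 had FPKM of 1 or more in every group, summing to 5079 in UV-treated and 2935 in untreated p53CryKO cells and to 3488 in UV-treated and 2522 in untreated p53KO cells, while Lum and Fap were at or below 0.217. Vim was the largest single part of each of those sums. On the authors' scale it was higher after UV in both genotypes, with 4558 against 2256 FPKM in p53CryKO and 2502 against 1238 FPKM in p53KO cells. At equal coding FPKM every log2 change after UV in these markers is lower by 1.02 (p53CryKO) and 1.01 (p53KO), about the size of the rise of Vim. Without Vim the other 9 summed to 521 in UV-treated and 679 in untreated p53CryKO cells. In p53KO cells they summed to 985 after UV and 1284 without. Of the 9, 5 (Col1a1, Col1a2, Col3a1, Pdgfra and Pdgfrb) were at lower FPKM after UV in both genotypes. Thy1 and Dcn were at higher FPKM after UV in both. Thy1 had 96.8 FPKM after UV and 37.8 without in p53CryKO cells, and 335 and 109 in p53KO cells. Dcn had 99.1 FPKM after UV and 26.5 without in p53CryKO cells, and 79.0 and 17.1 in p53KO cells. The 6 endothelial markers summed to between 0.752 and 1.46 in the 4 groups. The 6 leukocyte markers summed to 12.1 in UV-treated and 3.33 in untreated p53CryKO cells and to 13.2 in UV-treated and 3.03 in untreated p53KO cells. Most of it was Cd68, at 11.3 and 2.82 FPKM in p53CryKO and 12.5 and 2.41 FPKM in p53KO cells, with Adgre1 and Cd3e listed at 0. The part of any of these in the levels above was not tested, and fewer cells of a type and less RNA per cell cannot be told apart in bulk RNA. Transcripts of the targeted genes were counted in all groups: Trp53 at 106 FPKM in UV-treated and 84.4 FPKM in untreated p53CryKO cells and at 94.96 and 78.8 FPKM in p53KO cells, Cry1 at 3.79 and 3.34 FPKM against 4.55 and 3.85 FPKM, and Cry2 at 1.10 and 4.54 FPKM against 0.488 and 2.44 FPKM. FPKM over a whole gene does not show whether a deleted part is read, so these levels check neither genotype label.

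The genes around these 10 were counted in 7 lists of 144 entries. Beside each count stand the shares of all tested genes, 25.1% higher and 27.2% lower in p53CryKO cells. In p53KO cells these shares were 23.9% and 26.9%. Among 22 relatives of the matricellular genes, 4 were higher and 2 lower of 11 tested in p53CryKO cells (median 0.50), and 8 were higher and 6 lower of 18 tested in p53KO cells (median 0.71); at equal coding FPKM both medians turned (-0.52 and -0.30). Wisp1 (Ccn4), a Wnt-induced member of the CCN family, fell with Cyr61: it had 2.79 FPKM in UV-treated and 23.8 FPKM in untreated p53CryKO cells (-3.09, implied SE 0.26), and 2.19 FPKM in UV-treated and 12.7 FPKM in untreated p53KO cells (-2.54, implied SE 0.31). Lgals1, the gene of the carbohydrate-binding galectin-1, rose with 16558 FPKM in UV-treated and 5157 FPKM in untreated p53CryKO cells (1.68, implied SE 0.25), and 18205 FPKM in UV-treated and 4786 FPKM in untreated p53KO cells (1.93, implied SE 0.39). Both were called in both genotypes in the authors' deposited table.

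Of 28 receptors of matricellular proteins, 5 were higher and 8 lower of 21 tested in p53CryKO cells and 4 higher and 10 lower of 24 tested in p53KO cells. The same 8 were lower in both. Itga5, the fibronectin-specific integrin chain, fell to 11.3 FPKM in UV-treated p53CryKO cells, against 49.0 FPKM in untreated ones (-2.12), and to 11.9 FPKM in UV-treated p53KO cells, against 62.7 FPKM in untreated ones (-2.40), against the direction of Fn1 on the authors' scale. Lrp5, a Wnt coreceptor, fell with log2 fold changes of -1.35 and -1.81. Cd47, a thrombospondin-1 receptor, rose to 32.9 FPKM in UV-treated p53CryKO cells, against 16.9 FPKM in untreated ones (0.96), and to 27.6 FPKM in UV-treated p53KO cells, against 16.0 FPKM in untreated ones (0.78), in the direction opposite to Thbs1. Itgb1, the beta chain shared by many integrins, rose by 0.49 and 0.73, and Itgav, a partner of several RGD-binding integrins, had 0.18 and 0.44 (q = 0.723 and 0.231 in the authors' deposited table). The values of Cd47, Itgb1 and Itgav were negative in both genotypes at equal coding FPKM. At that scaling 0 receptors were called higher in either genotype, and 12 (p53CryKO) and 13 (p53KO) lower. The same scaling left 521 genes higher and 7138 lower of all 15872 tested in p53CryKO cells. In p53KO cells it left 571 higher and 6620 lower of 15857. With a normal p from the implied SE, the calls of Itgb1 in both genotypes (q = 0.130 and 0.0787) and of Cd47 in p53KO cells (q = 0.120) were lost.

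Of 18 genes that link integrins to the cytoskeleton, 5 were higher and 8 lower in p53CryKO cells and 5 higher and 7 lower in p53KO cells, with medians of -0.09 and 0.02 (-1.11 and -0.99 at equal coding FPKM). The scaffold Bcar1 (p130Cas) fell with log2 fold changes of -2.65 and -2.83, and the focal adhesion protein Tns3 with -1.84 and -1.91. Among 22 partners of fibronectin and elastic fibres, 7 were higher and 3 lower of 20 tested in p53CryKO cells and 11 higher and 5 lower of 21 tested in p53KO cells; the medians of 0.29 and 0.50 turned to -0.73 and -0.51 at equal coding FPKM. The laminin chain Lamb1 rose with Fn1 (1.24 and 1.72), and Emilin1, an elastic fibre glycoprotein, fell (-2.58 and -2.79). The rise of Lamb1 was 0.22 (q = 0.685) and 0.72 (q = 0.167) at equal coding FPKM.

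The list of the YAP, TAZ and TEAD pathway, which also holds kinases and other regulators that act on YAP, was mostly lower after UV. Of 23 tested, 2 were higher and 17 lower in p53CryKO cells (median -0.997), while 3 were higher and 16 lower in p53KO cells (median -1.09), and 15 were lower in both. Yap1 fell to 11.6 FPKM in UV-treated p53CryKO cells, against 27.9 FPKM in untreated ones (-1.27, implied SE 0.26), and to 11.5 FPKM in UV-treated p53KO cells, against 34.0 FPKM in untreated ones (-1.57, implied SE 0.30). Wwtr1, which encodes TAZ, had -0.43 (q = 0.0232) and -0.42 (q = 0.0661), and Tead1 had -0.40 (q = 0.211) and -0.33 (q = 0.365) in the authors' deposited table. The fall of Wwtr1 in p53CryKO cells was not called with a normal p from the implied SE (q = 0.161). At equal coding FPKM the p53KO value of Wwtr1 was -1.43 (q = 2.11e-06). Tead1 then had -1.43 (q = 0.00322) in p53CryKO and -1.34 (q = 0.0260) in p53KO cells, so these calls were gained at that scaling. On the authors' scale, Tead3 (-0.75 and -0.71) and Tead4 (-0.997 and -1.09) were called lower in both genotypes. Tead2 was called higher in both (0.76 and 0.79, implied SEs 0.29 and 0.35, q = 0.0014 and 0.00145 in the authors' deposited table). With a normal p from the implied SE, 2 genes of this list were higher and 14 lower in p53CryKO cells. In p53KO cells 1 was then higher and 13 lower, and the call of Tead2 was among those lost there. At equal coding FPKM 0 genes of this list were called higher in either genotype. The angiomotin gene Amotl2, itself a YAP target, fell with log2 fold changes of -3.07 and -1.86, with a difference of -1.20 (implied SE 0.47, adjusted q = 0.901 over 12300 genes), and the LIM protein gene Ajuba with -2.69 and -2.33.

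Of 17 other YAP target genes, 3 were higher and 10 lower in p53CryKO cells (median -0.72) and 3 higher and 8 lower in p53KO cells (median -0.26). They did not all follow Cyr61. Ankrd1, a cardiac ankyrin repeat protein gene and a standard YAP reporter, had 31.8 FPKM in UV-treated and 52.5 FPKM in untreated p53CryKO cells (-0.72, q = 0.000161 in the authors' deposited table), and 26.2 FPKM in UV-treated and 25.2 FPKM in untreated p53KO cells (0.06, q = 0.822 in the authors' deposited table), the p53KO value being negative (-0.95) at equal coding FPKM. Asap1 fell with log2 fold changes of -2.41 and -2.06, and Gadd45a, a stress gene, rose by 2.48 and 3.06. Among 14 genes of serum response factor, its coactivators and actin, 8 were higher and 3 lower in p53CryKO cells (median 0.82) and 6 higher and 4 lower in p53KO cells (median 0.22), and both medians turned at equal coding FPKM (-0.20 and -0.79). Srf itself had -0.07 and -0.26 (q = 0.932 and 0.773 in the authors' deposited table), its coactivator gene Mkl1 fell (-2.21 and -2.25), and the tropomyosin gene Tpm2 rose by 1.45 and 1.91, the p53CryKO value being 0.43 (q = 0.163) at equal coding FPKM. None of the other 21 genes named from the lists by the rule given below was called different between the genotypes either.

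**Figure D5:**
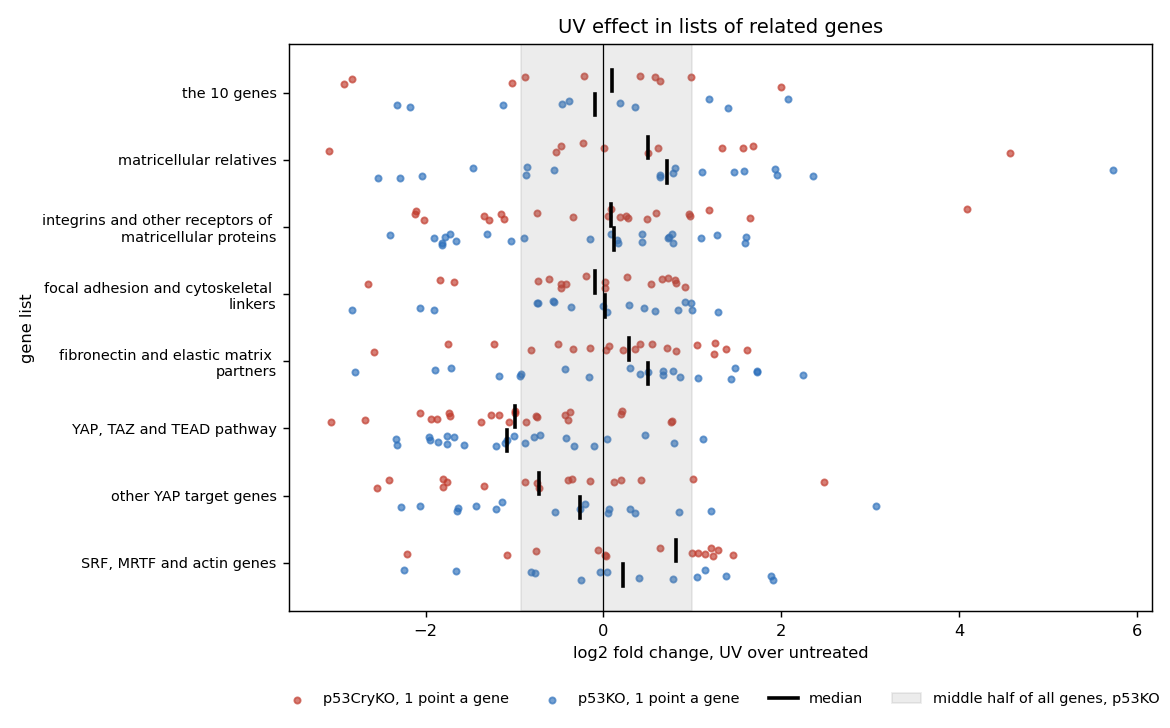
Log2 fold change (UV over untreated) of each tested gene in the 10 genes and the 7 lists, in p53CryKO cells (red, upper row of each list) and p53KO cells (blue), with the list median as a black bar and the interquartile range of all tested p53KO genes in grey (-0.92 to 1.00). The 10 genes spread to both sides of the grey band, and the YAP, TAZ and TEAD list has medians of -0.997 and -1.09; all values are on the authors' scale, and the positive medians of relatives, receptors, matrix partners and actin genes are negative at equal coding FPKM.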

How the data were processed

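Poly(A)-selected RNA of 8 samples was prepared with a TruSeq kit for paired-end sequencing, per the labels' protocols. The submitters' processing notes name FastQC 0.11.5, Trimmomatic 0.35, STAR 2.5.2, Cufflinks, Cuffdiff and GRCm38; their options and strand use are not given in the sources used here. A Cuffdiff table of 39175 genes a genotype was deposited, with FPKM that the authors pooled over replicates. It also has a signed score (the deposited test statistic), a p-value and a q-value of the authors, per the file headers. Many genes share their smallest p of 5e-05, which therefore gives no ranking. Another deposited table that repeats tested genes was not used. The authors' tests stay within a table, each normalized on its own by the authors. The difference between genotypes sets the fold changes of the 2 tables against each other.

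From these, log2 fold changes were recomputed without a pseudocount, and an SE was implied by dividing each fold change by the authors' test statistic. The difference between genotypes was tested as described, with Python 3.11.15, numpy 2.4.6, scipy 1.17.1 and pandas 2.3.3; figures used matplotlib 3.10.9. It was tested on simulated data first. The genes named followed a rule: all 10 members, and from each list up to 2 genes with the largest mean size of change among those called in the same direction in both with FPKM of 5 or more, plus 10 genes named whatever their values, of which Amotl2 and Itga5 were also picked by the first part. Tead2, Tead3 and Tead4 were named in addition, outside that rule and after their values had been seen. The members, lists and rules were chosen with earlier results of these data known. Depth is not known from FPKM; the smallest step of low values (FPKM times exonic kb) was 1.86 times larger after UV than without in p53CryKO and 2.09 times in p53KO cells, and whether a step is 1 fragment was not checked. Alternatives were a q of 0.01, a log2 fold change of 1, an FPKM minimum of 1, FPKM + 1, centring on the median gene and equal summed coding FPKM; a normal p with the implied SE was added after seeing the data, as the base of the rescaled fits, and so was the genotype difference at equal coding FPKM. Promoter sequences came from RefSeq (GRCm38.p6) and gene models from GENCODE M21.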

Additional observations from a re-analysis of the deposited data

How the results depend on the processing

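No paired analysis was possible because the authors' tables hold 1 pooled value a group and carry no replicate, and for the same reason no replicate could be left out in turn. In p53CryKO cells the 5 members called higher became 3 at q of 0.01, and 1 each with a log2 fold change of at least 1, when centred on the median gene, at equal summed coding FPKM, and with a normal p from the implied SE. Since that normal p alone brought the count to 1, the rescaled counts carry its loss too. In p53KO cells 0 members were higher and 6 lower at equal coding FPKM. Over all genes, 3984 higher in p53CryKO cells became 2339 with a log2 fold change of at least 1, 2639 when centred and 521 at equal coding FPKM, where 7138 were lower against 4316. In p53KO cells 3796 higher became 2457 and 571 under the first and the last of these, with 6620 lower at equal coding FPKM against 4269. The normal p alone, without rescaling, gave 2833 higher and 3338 lower in p53CryKO cells, and 2679 higher and 3202 lower in p53KO cells. The counts when centred and at equal coding FPKM carry that loss too. Equal coding FPKM reversed, in p53CryKO cells, Thbs2 (-0.61), Thbs3 (-0.0342), Sparc (-0.44), Fn1 (-0.39), Cd47 (-0.0610), Itgav (-0.84) and Itgb1 (-0.53), and in p53KO cells Thbs2 (-0.66), Sparc (-0.82), Ankrd1 (-0.95), Cd47 (-0.23), Itgav (-0.57) and Itgb1 (-0.28). These follow from the shift itself. The difference between genotypes was called for 22 genes, for 39 with the SE from the p-value and for 6 with FPKM + 1, and for 0 of the 10 members under all of its alternatives. With the normal p, these list counts moved by over 1.5 times. In p53CryKO cells the relatives called lower went to 1 (from 2) and the focal adhesion genes lower to 4 (from 8). In p53KO cells those called higher went to 5 (from 8) for the relatives, 2 (from 4) for the receptors and 3 (from 5) for the focal adhesion genes. They went to 7 (from 11) for the matrix partners and 1 (from 3) for the YAP list. The fold changes stayed the same, so only the p-value and its adjustment differed. Why the 2 p-values differ was not tested. Pooled values and 2 replicates a group limit all of these results.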
